A study of Bos taurus with 8 samples.

Results

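The cytosolic ribosomal proteins are the proteins of the ribosome of the cytosol, and their messages are described here in mammary gland tissue of high-yield and low-yield dairy cows. The members were chosen by gene name from the probe annotation of the arrays, as RPL or RPS followed by a number, or RPSA, RPLP0, RPLP1 and RPLP2. Names of the ribosomal S6 kinases and names ending in L1 or P1 after a number were left out. This gave 80 of 25766 gene names on the array, 47 of the large subunit and 33 of the small subunit, each read at its brightest probe. The filter on dim probes was passed by 18113 gene names and by 79 of the members, and the brightest probe of RPL3L, a close relative of RPL3 known from striated muscle, did not pass it.

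The study set 4 Holstein Friesian cows with a high milk yield, 11097 kg per lactation on average, against 4 with a low yield, 6956 kg on average, all described as healthy and lactating. Total RNA was taken from a single section of each udder, and 1000 ng was labelled. Animals were matched by lactation into 4 pairs of unlike yield, and every pair was hybridised on 2 arrays with the dyes Cy5 and Cy3 exchanged. Pairs 1 and 2 belonged to lactation II and slide 1, whereas pairs 3 and 4 belonged to lactation IV and slide 2, so lactation and slide cannot be told apart. The labels call the pairs biological replicates. The low-yield cow of pair 1 stood apart from the others: the summed intensity of 7 markers of secretory epithelium was 15.48 (log2) in it and between 19.50 and 22.24 in the other 7 cows. The part of this in the pair 1 ratios was not tested, and values without pair 1 are given for some of the results that rest on it. Values are log2 ratios of the high-yield over the low-yield cow of a pair, averaged over its 2 arrays, so that 0 is no difference and 1 a doubling. In bulk tissue, fewer cells of a type and less message per cell cannot be told apart.

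Ribosomes are built from ribosomal RNA and a set of proteins, most of which are needed in equal numbers. The secretory cells of the lactating gland use ribosomes to make caseins and whey proteins in bulk. The messages of ribosomal proteins begin with a tract of pyrimidines, the terminal oligopyrimidine (TOP) motif, through which the kinase complex mTORC1 and the RNA-binding protein LARP1 control their translation as a group. That control acts on translation, whereas an array reads the abundance of the message. Some ribosomal proteins also have duties outside the ribosome: RPL5 and RPL11 bind MDM2 and so restrain the breakdown of p53, and RPS6 is a target of the S6 kinases.

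The members were covered by 299 probes of 60 bases, and the sequences that the results below turn on are printed here, 5′ to 3′, with positions on build HGSC Btau_3.1 as the scanner files give them. Exon and intron annotation of that build was not used here. The first set holds 1 probe with a high and 1 with a low ratio of Cy5 to Cy3 signal, and the probe with the lowest mean ratio of yield among the large subunit. The RPS14 probe (chr7:61245013-61245565, minus strand) matches a stretch of the genome longer than itself, and the RPS23 probe (chr7:83147589-83147648, plus strand) and the RPL28 probe (chr18:62493123-62493182, minus strand) match unbroken ones.
RPS14: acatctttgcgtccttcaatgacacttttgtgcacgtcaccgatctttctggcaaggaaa
RPS23: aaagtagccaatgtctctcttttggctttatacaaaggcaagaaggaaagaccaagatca
RPL28: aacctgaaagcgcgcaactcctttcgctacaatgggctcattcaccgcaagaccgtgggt

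The second set shows probes of related genes or of the same gene that share bases. A probe named RPS4X (chrX:47882718-47882777, plus strand) and a probe named RPS4Y1 (chr23:10765601-10765660, plus strand) shared an unbroken run of 40 bases, printed in capitals, the only run of at least 25 bases shared by probes of different members that passed the filter.
RPS4X: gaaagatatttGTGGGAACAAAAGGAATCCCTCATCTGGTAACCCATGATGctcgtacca
RPS4Y1: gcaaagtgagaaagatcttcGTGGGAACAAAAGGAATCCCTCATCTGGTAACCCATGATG
The brighter (chr23:9696271-9696330) and the dimmer (chr23:9696254-9696313) of 2 RPL10A probes, both on the plus strand, overlapped by 43 bases with 1 difference, C15T, counted from 1 at the 5′ end of the brighter probe. Their longest unbroken shared run of 28 bases is in capitals.
RPL10A, brighter probe: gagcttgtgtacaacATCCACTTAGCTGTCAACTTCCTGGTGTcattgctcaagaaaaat
RPL10A, dimmer probe: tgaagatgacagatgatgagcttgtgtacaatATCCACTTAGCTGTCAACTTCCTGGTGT

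No ribosomal protein gene differed between high-yield and low-yield cows after adjustment. With limma's test of the mean of 4 pairs, 0 of 79 members had an adjusted p under 0.05, as did 0 of all 18113 genes (0%), and the adjusted p of the members lay between 0.774 and 0.998. At an unadjusted p under 0.05 there were 2 members, RPS27L and RPL36, which is 2.53% of the members against 5.42% of all genes. The mean ratio of 69 members lay within 0.25 of 0 and that of 77 within 0.5. The SD over the 4 pairs was larger than the size of the mean ratio for 64 members. The shares of all genes that go with these counts are not given here, so the counts cannot be read as particular to the members. The standard error of a member's mean ratio ran from 0.12 to 0.32, with a median of 0.15, which sets the size of difference that could be seen.

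Agreement in sign over the pairs was no more common among the members than over the array. In all 4 pairs 6 members were higher in the high-yield cow (7.59%, against 9.34% of all genes), and 6 were lower (7.59%, against 8.19%). With loess the members varied less over pairs than genes at large, with a median SD of 0.22 against 0.40 for all genes tested. This depends on the scaling. With median centring in place of loess, the large subunit median was -0.85 in pair 1 and 0.92 in pair 2. The small subunit then had -1.01 and 0.89, and all genes -0.71 and 0.16.

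The median of both subunits lay near 0 in pairs 3 and 4 and above it in pair 2, and in pair 1 that of the small subunit lay below 0. For the 46 large subunit genes tested the median ratio was -0.013, 0.17, 0.022 and -0.012 over pairs 1 to 4. For the 33 small subunit genes it was -0.23, 0.12, 0.022 and -0.013 in the same order. The 2 subunits thus leaned the same way in pair 2, where 36 of 46 and 24 of 33 genes lay above 0, against 55.6% of all genes. In pair 1 the small subunit leaned lower, with 12 of 33 genes above 0, while 21 of 46 large subunit genes did so, against 48.4% of all genes. The spread of single members was widest in pair 1, with an SD of 0.42 over the members, against 0.29, 0.22 and 0.29 in pairs 2 to 4, and all genes spread by 0.96 in pair 1 and 0.42 in pair 2.

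**Figure D1:**
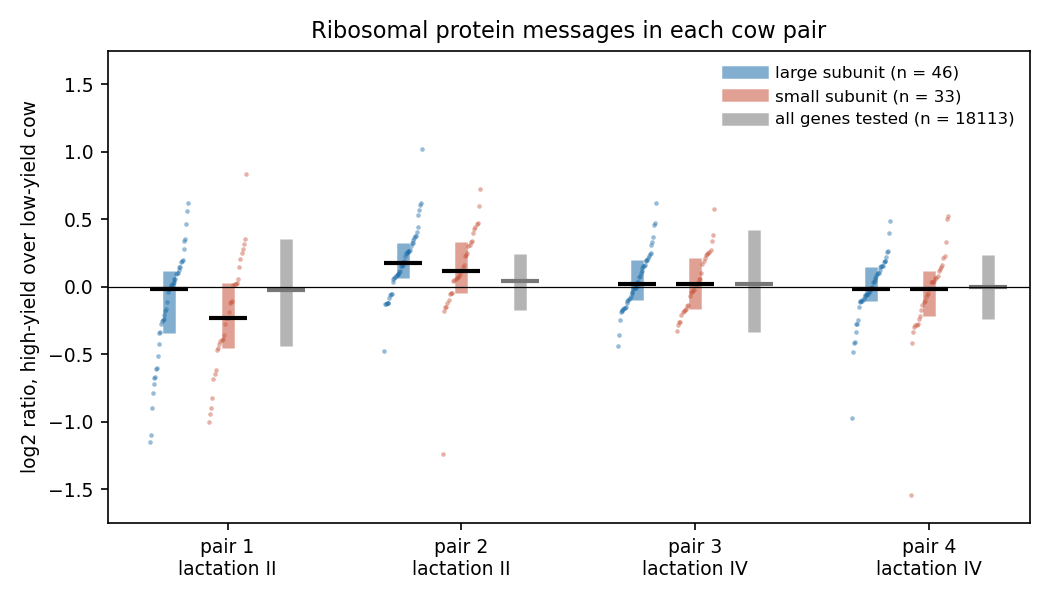
Log2 ratio, high over low yield, for each of the 4 pairs (points, 1 per gene) for the 46 large and 33 small subunit genes; thick bars run from the lower to the upper quartile and dashes mark the median, also for all 18113 genes tested. Subunit medians lay near 0 in pairs 3 and 4, above 0 in pair 2, and for the small subunit below 0 in pair 1.

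Over the 4 pairs the median of the members' mean ratios was 0.037 for the large and -0.015 for the small subunit, against 0.022 for all genes. Without pair 1 the subunits lay at 0.10 and 0.046, against 0.036 for all genes, and 0 members passed limma's adjusted threshold. The sign of these medians turned with the scaling of the arrays. With median centring in place of loess the median over all genes itself shifted to -0.14, and the subunits lay at -0.10 and -0.14. With the scanner software's processed signals both subunits lay above 0, at 0.12 and 0.072, against 0.063 for all genes. With the saddle-point background both lay below 0, at -0.095 and -0.13, against 0.012 for all genes. There the large and small subunit medians were -0.58 and -0.71 in pair 3 and 0.31 and 0.24 in pair 2. In pairs 1 and 4 they stayed close to the main values. On array 1 of pairs 2 and 3 the SD of the ratios was 0.19 and 0.30 with that background, against 0.40 and 0.66 in the main values. Pair 1 showed how far the normalization reaches: its large subunit median was -0.013 with loess, -0.12 when the loess curve was drawn without the ribosomal protein probes, and -0.85 with median centring, where all genes had a median of -0.71.

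The acidic stalk of the large subunit, made of RPLP0 and the RPLP1 and RPLP2 proteins bound to it, recruits the elongation factors of translation. RPLP0 levels on the log2 intensity scale of pairs 1 to 4 were 17.43, 17.12, 17.13 and 17.25 at high yield and 17.23, 16.55, 16.82 and 17.03 at low yield. The high-yield cow was above its partner in every pair, though the groups overlapped, and the mean ratio was 0.33 ± 0.17 (SD, n = 4; limma adjusted p = 0.774). RPLP1 gave 17.77, 17.17, 17.04 and 17.45 against 17.15, 16.90, 16.96 and 17.05, again higher in each pair, with a mean ratio of 0.34 ± 0.23. RPLP2, whose best probe is unplaced on the build, did not follow them: its ratio was 0.19 and 0.61 in pairs 1 and 2 and -0.15 and -0.09 in pairs 3 and 4. In the authors' deposited table the pair 3 values of RPLP0 and RPLP1 had the opposite sign, at -0.23 and -0.47, as did that of RPL36 described next, at -0.23.

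Of the other large subunit genes, RPL36 had the smallest unadjusted p. Its levels were 16.30, 16.18, 16.06 and 15.77 at high yield and 15.84, 15.56, 15.86 and 15.50 at low yield, pair by pair. Each high-yield cow was above its partner, though the groups overlapped, and the mean ratio was 0.39 ± 0.19 (SD, n = 4), a 1.31-fold difference, with limma's unadjusted p of 0.0377 and an adjusted p of 0.774. A second RPL36 probe, which the file places on another chromosome, gave 0.49, 0.61, 0.19 and 0.28 over the pairs, close to the 0.46, 0.62, 0.20 and 0.27 of the brightest.

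At the other end of the large subunit stood RPL28. Its levels were 12.72, 13.32, 12.16 and 12.63 in the high-yield and 13.87, 13.37, 12.33 and 13.60 in the low-yield cows, lower in each high-yield cow than in its partner but by very different amounts. In the authors' deposited table its ratio was 0.029 and 0.013 in pairs 2 and 3, and without pair 1 its mean ratio was -0.40. The mean ratio was -0.59 ± 0.55 (SD, n = 4; limma adjusted p = 0.774), and pairs 1 and 4 carried it, with -1.15 and -0.97 against -0.052 and -0.17 in pairs 2 and 3. In pair 1 the arrays themselves disagreed: the RPL28 probe printed above gave -0.10 with the high-yield cow in Cy5 and -2.20 with the dyes exchanged. RPL30 was lower in all pairs at -0.24 ± 0.21.

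The members with duties outside the ribosome showed no common direction. RPL5 gave -0.78, -0.06, 0.25 and -0.11 over the pairs and RPL11 gave -0.21, 0.23, -0.068 and 0.039. Both were therefore on both sides of 0. The 2 members whose ratios varied least were RPL13A, at 0.13 ± 0.05, and RPL10L, at 0.070 ± 0.057. The RPL13A mean was 0.33 from the arrays with the high-yield cow in Cy5, -0.078 from the others and -0.026 with the saddle-point background, and the authors' deposited table reads -0.36 in pair 3. RPL10L, a retrogene copy of RPL10 known from testis, was measured near the foot of the intensity scale, between 6.22 and 6.50 in all 8 cows, where an offset of 50 added to every intensity pulls ratios towards 0.

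In the small subunit the highest mean ratio was that of RPS27L, a paralog of RPS27 known as a target of p53. Its levels were 11.44, 11.47, 11.57 and 10.69 in the high-yield cows and 10.60, 10.74, 11.30 and 10.54 in the low-yield cows. Each high-yield cow was above its partner, most in pairs 1 and 2, while the groups overlapped, and the mean ratio was 0.50 ± 0.34 (SD, n = 4), a 1.41-fold difference, with limma's unadjusted p of 0.0349 and an adjusted p of 0.774. Its parent gene RPS27 stood at -0.014 ± 0.31. The dimmer of 2 further RPS27L probes stayed within 0.16 of 0 in every pair, and the other gave 0.40, 0.59, 0.44 and -0.24.

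RPS7 and RPS15A were lower in each high-yield cow than in its partner by small amounts. RPS7, another MDM2-binding ribosomal protein, gave -0.39, -0.15, -0.18 and -0.28, a mean of -0.25 ± 0.11 (SD, n = 4; limma adjusted p = 0.774). RPS15A gave -0.11, -0.051, -0.33 and -0.013. In the authors' deposited table both lay above 0 in pair 2, at 0.044 and 0.12.

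RPS29 had a low mean ratio and a wide spread, -0.76 ± 0.75. Without pair 2 its mean was -0.60, against -0.76 for RPL28. The ratios were 0.018, -1.24, -0.28 and -1.54, and the pair 2 value rests on 1 array because the spot of the other array was marked as an outlier. The arrays of a pair opposed each other: with the high-yield cow in Cy5 and then in Cy3 the probe read -1.22 and 1.26 in pair 1 and -2.71 and 2.14 in pair 3. In the authors' deposited table the pair 2 value of RPS29 was 0.25. A second probe of RPS29 gave -0.21, -0.15, -0.19 and -0.85. RPL37A, the other member that lacked 1 array in pair 2, read 1.02 there and between -0.11 and 0.37 in the other pairs.

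Other small subunit genes turned their sign between pair 1 and the rest. RPS9 read -1.002 in pair 1 and 0.60, 0.58 and 0.50 in pairs 2 to 4, and its second probe gave -0.96, 0.74, 0.67 and 0.38. RPS3, which lines the entry of the messenger channel, read -0.64 and then 0.30, 0.39 and 0.13. RPS6 read -0.39 and then 0.34, 0.061 and 0.070, and RPS19, which is needed to mature the small subunit RNA, read -0.42 and then 0.43, 0.23 and 0.12. RPSA, which also serves as a laminin receptor, read 0.25, 0.47, -0.036 and 0.042. The mean ratios without pair 1 were 0.56 for RPS9, 0.27 for RPS3, 0.16 for RPS6 and 0.26 for RPS19, against 0.17, 0.045, 0.020 and 0.091 with it. RPS27A, made as a fusion with ubiquitin, read 0.027, -0.18, -0.19 and -0.24.

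**Figure D2:**
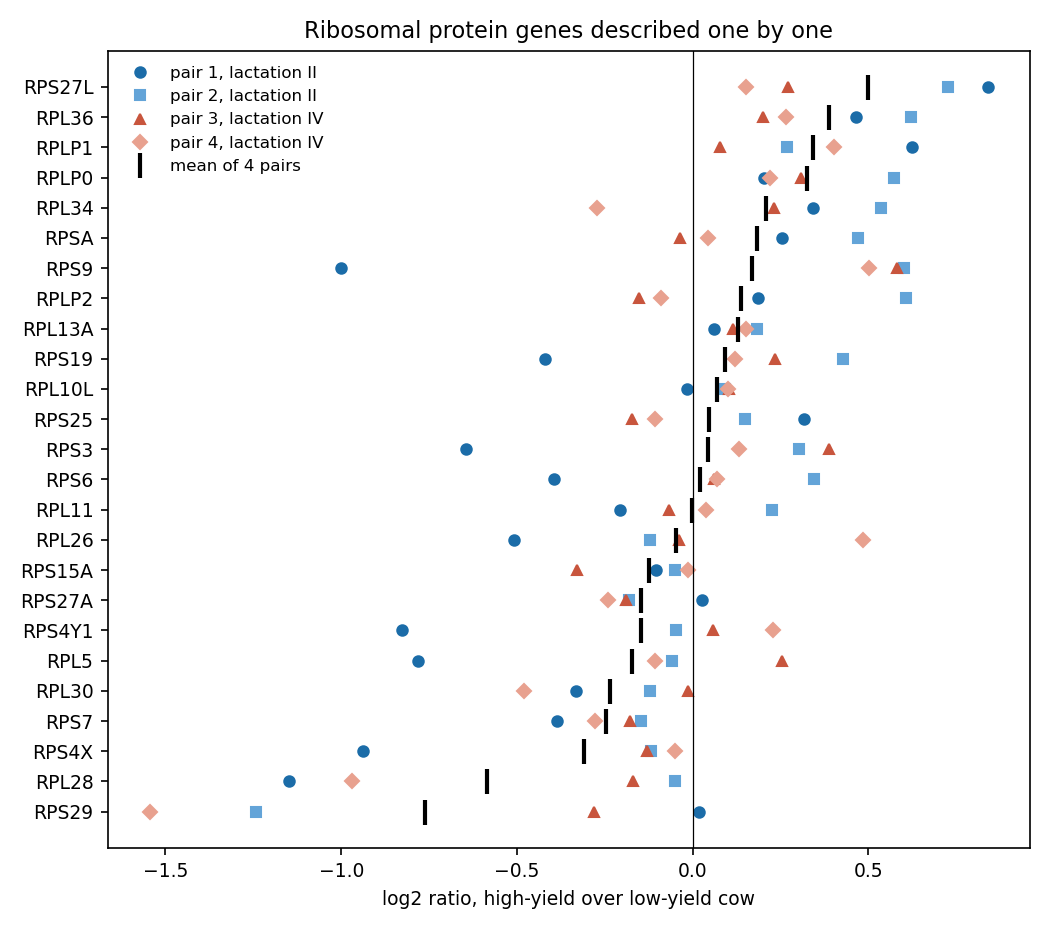
Log2 ratio (high over low yield) of 25 ribosomal protein genes (rows) in the 4 pairs (symbols), with the mean of the pairs as a black bar. RPS27L, RPL36, RPLP1 and RPLP0 lay above 0 in all pairs, and RPS9, RPS3, RPS6 and RPS19 lay below 0 in pair 1 and above it in the others.

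RPS4X and RPS4Y1, paralogs named for the human sex chromosomes, were each read at the brightest probe, and another probe of each holds the same run of 40 bases. RPS4X was lower in each high-yield cow than in its partner, with -0.94, -0.12, -0.13 and -0.052, although the authors' deposited table reads 0.067 in pair 2. Its mean ratio was -0.31 over the 4 pairs and -0.10 without pair 1. RPS4Y1 gave -0.83, -0.047, 0.059 and 0.23, with the other sign in pairs 3 and 4. On the single arrays of pair 1 the probes that share the run read alike. With the high-yield cow in Cy5 and in Cy3 the RPS4X probe read 0.26 and -2.22, and the RPS4Y1 probe 0.18 and -1.91. Some probes outside the run did so too: the brightest RPS4Y1 probe read 0.33 and -1.99 and that of RPS9 0.16 and -2.16. The likeness is therefore not particular to the shared bases. All samples came from cows, and the file places the RPS4Y1 probe on chromosome 23. Among the other related pairs, RPL36A and RPL36AL stood at 0.20 ± 0.16 and 0.18 ± 0.30, RPL10 at -0.036 ± 0.20 and RPL3 at -0.33 ± 0.54. Pair 1 carried the RPL3 mean, with -1.10 against 0.16, -0.094 and -0.28 in pairs 2 to 4. Reads of near-identical messages by probes outside the shared runs were not tested.

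Across the members the 2 arrays of a pair did not rank the genes alike. The correlation between the dye-swapped arrays over the members was -0.11, -0.37, -0.65 and -0.31 for pairs 1 to 4, both arrays being turned to high over low yield. Over all genes tested the same correlation was 0.79, 0.33, 0.68 and 0.31. For 75 other genes as bright as the brightest 75% of the members it was 0.97, 0.050, 0.39 and 0.11. These values describe genes on shared arrays, which are not independent replicates. The ratio with the high-yield cow in Cy5 minus that with it in Cy3, divided by 2, is the part that stays with the dye, called the dye part below. Above 0 it means more signal in Cy5. Its SD over the members was 0.46, 0.33, 0.47 and 0.39 in pairs 1 to 4. Over the 75 other bright genes it was 0.42, 0.64, 0.65 and 0.72, so a wide dye part was not particular to the members.

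**Figure D3:**
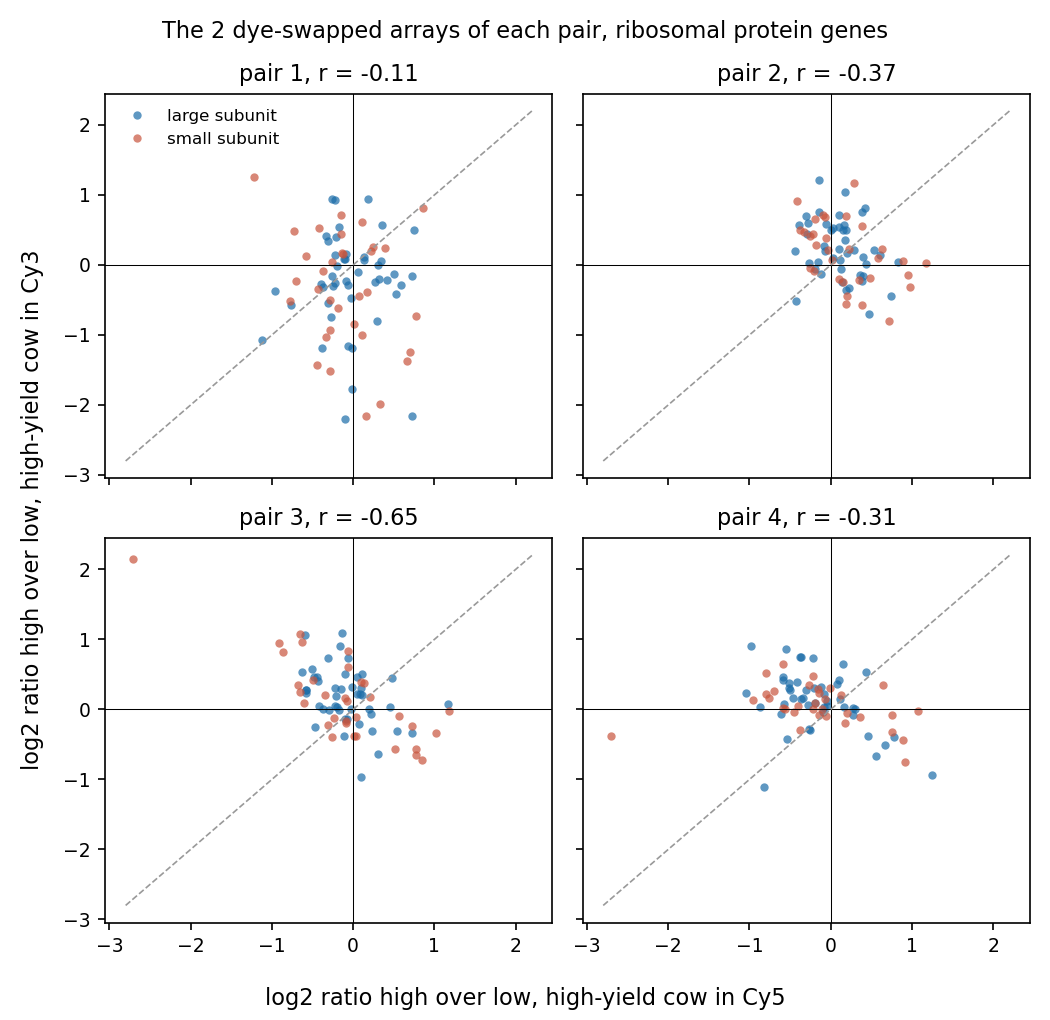
Log2 ratio of high over low yield on the array with the high-yield cow in Cy5 (horizontal) and on the array with the high-yield cow in Cy3 (vertical), 1 point per ribosomal protein gene and 1 panel per pair; the dashed line marks equal values. The points run against that line in pairs 2, 3 and 4, with correlations of -0.37, -0.65 and -0.31.

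The dye part ranked the members much alike in every pair. Between pairs its correlation over 77 members with values on all arrays lay between 0.69 (pairs 1 and 3) and 0.85 (pairs 2 and 3). That of the yield ratio lay between -0.15 (pairs 1 and 3) and 0.52 (pairs 2 and 3). Over all genes the dye part gave 0.45 to 0.76 and the yield ratio -0.35 to 0.32 for the same pairs. Single members could vary, such as RPL28 with a dye part of 0.26 ± 0.60 and RPS26 with 0.11 ± 0.61. With limma's test of the dye part, 29 of 77 members had an adjusted p under 0.05 (37.7%), 12 with more signal in Cy5 and 17 with more in Cy3, against 24% of all genes. The count of members was 7 with the saddle-point background, 56 with median centring, 22 with the processed signals and 20 without pair 3. The share of all genes called in these settings is not given here. These changes therefore cannot be told apart from a change over the whole array. The dye part was larger in size than the mean yield ratio for 51 of the 77. The share of all genes for which this held is not given here, so the count cannot be read as particular to the members.

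High dye parts were those of RPS4Y1 at 0.84 ± 0.22 (SD, n = 4), RPS24 at 0.72 ± 0.21 and RPL10A at 0.65 ± 0.16. RPS14, whose dye part was 0.59 ± 0.06, was the steadiest of these 4. At the low end stood RPS21 at -0.63 ± 0.22, RPL37 at -0.60 ± 0.25 and RPL36A at -0.55 ± 0.11. The RPS23 probe printed above gave -0.47 ± 0.15. Because each pair held both orientations, the dye part cancels in a pair mean, apart from RPS29 and RPL37A in pair 2.

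**Figure D4:**
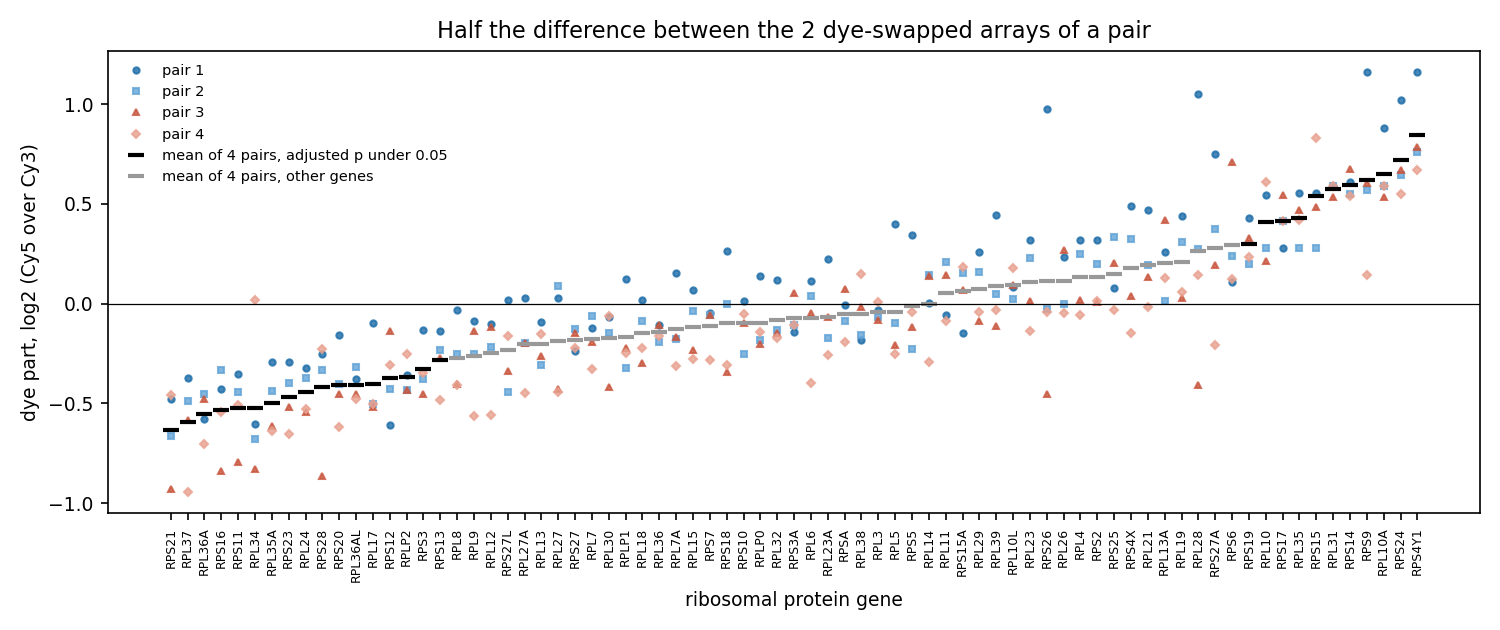
Dye part (log2, Cy5 over Cy3) of 75 ribosomal protein genes with values on all 8 arrays, in each pair (symbols) and as the mean of 4 pairs (dashes, black where limma's adjusted p was under 0.05). Means run from -0.63 for RPS21 to 0.84 for RPS4Y1, and 28 dashes are black.

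Probes of 1 gene could differ widely in the dye part. The brightest RPLP0 probe (chr17:65830830-65830889, minus strand) had a dye part of -0.10 ± 0.16, while a probe of the same strand further inside the gene (chr17:65832713-65832878) had 1.20 ± 0.26 and read 1.11 and -2.00 on the arrays of pair 1. It is shown because the same message gave opposite arrays there.
RPLP0, inner probe: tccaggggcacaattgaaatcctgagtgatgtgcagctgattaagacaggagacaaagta
Their mean ratios of yield were 0.33 and 0.24. Of the RPS4X probes, the brightest had a dye part of 0.18 ± 0.28 and the one that shares bases with RPS4Y1 had 1.02 ± 0.17. The overlapping RPL10A probes printed above gave 0.65 ± 0.16 and 0.60 ± 0.20, and on the single arrays of pair 1 they read -0.02 and -1.78 against 0.06 and -1.69.

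A sequence feature went along with the dye part. The letters AATAAA or ATTAAA, the polyadenylation signal near the end of most messages, were searched on the printed strand of each probe and were held by 83 of 269 ribosomal protein probes with values on all arrays (30.9%) and by 14.5% of 29350 other probes. The median dye part was -0.12 for the 83 probes with these letters and 0.12 for the 186 without. For other probes it was -0.097 with and 0.0019 without them. In 46 members that had both kinds of probe, the mean dye part was higher for the probes without the letters in 36, with a median difference of 0.23. The median yield ratio of the same probes was 0.047 with and -0.011 without the letters. The share of G and C in a probe had a correlation of 0.26 with the dye part over 77 members. These are descriptions of probes that share arrays, and labelling chemistry and distance from the message end were not tested.

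Of the members, 71 had a further probe that passed the filter, 196 probes in all. In 37 of these genes every further probe had a mean ratio of the same sign as the brightest, and in 34 at least 1 had the opposite sign. The correlation of further probes with the brightest was 0.60, 0.53, 0.48 and 0.38 over pairs 1 to 4. Further, 11 probes with a member's name lay on the opposite strand by their coordinates, and 9 of them passed the filter.

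The levels of single cows set pair 1 apart. Relative to each gene's own mean over the 8 cows, the median of the large subunit was 0.28 (high yield) and 0.32 (low yield) for pair 1, and between -0.16 and 0.015 in the other 6 cows. For the small subunit it was 0.14 and 0.33 in pair 1 and between -0.23 and 0.0037 in the others. The medians of all genes lay between -0.054 and 0.012. For 75 other genes as bright as the brightest 75% of the members the median was 0.42 and -0.069 in pair 1 and between -0.14 and 0.16 in the others. In the high-yield cow of pair 1 these other genes thus also stood above their own means. The 2 cows of a pair share their arrays. Milk protein genes also stood apart in pair 1. Their median ratio was 6.79 there and -1.16, -0.86 and -1.04 in pairs 2 to 4, with 9 of 9 listed genes measured. Their part in the ribosomal protein ratios of pair 1 was not tested.

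**Figure D5:**
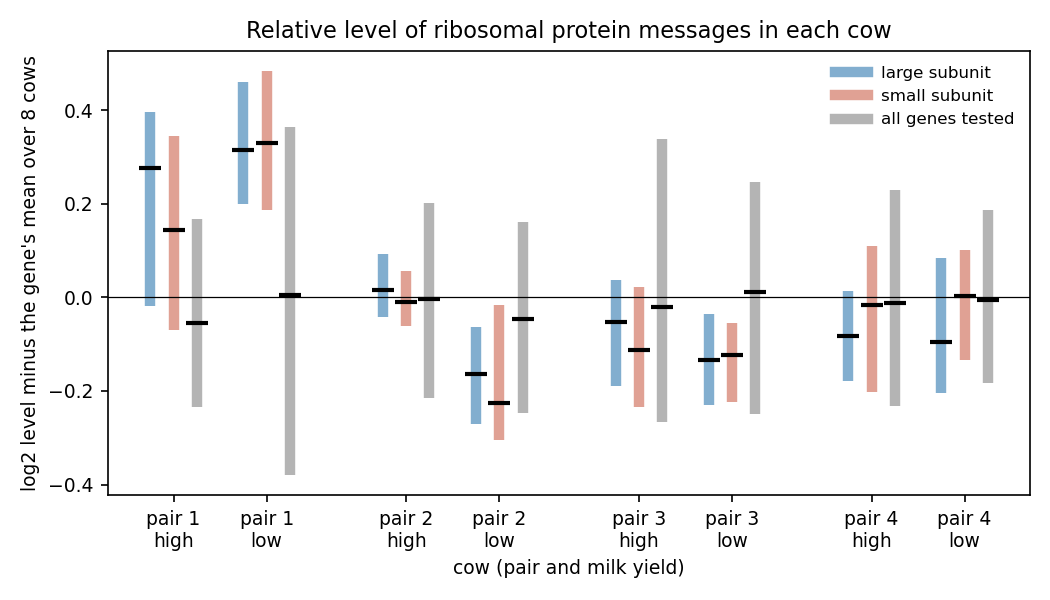
Level of each gene minus its own mean over 8 cows (log2), as median (dash) and quartiles (bar), for large subunit, small subunit and all genes in each of the 8 cows. Both cows of pair 1 lie above the others for ribosomal protein genes, with medians of 0.28 and 0.32 for the large subunit, and 75 other bright genes, not plotted, stood at 0.42 and -0.069 there.

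No member was called for a difference in its effect of yield between lactation IV and lactation II. The standard error of that difference ran from 0.28 for RPL37 to 0.65 for RPS29, so only large differences could be seen. With 2 pairs against 2, limma called 0 of 79 members and 0 of 18113 genes (0%), and the smallest adjusted p of a member was 0.655. At an unadjusted p under 0.05 there were 0 members, against 7.33% of all genes. The median difference, lactation IV minus lactation II, was -0.061 for the large and -0.020 for the small subunit. Members ran from -0.57 for RPS27L to 0.74 for RPS9. Among the large subunit the smallest p values belonged to RPLP2, at -0.52 ± 0.31 (SE), RPL26, at 0.54, and RPL34, at -0.46. In the small subunit they belonged to RPS27L, RPS4Y1, at 0.58, and RPS25, at -0.37. RPL26 read -0.51 and -0.12 in pairs 1 and 2 and -0.040 and 0.49 in pairs 3 and 4, so its pairs of one lactation differed by about as much as the lactations.

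Genes that work with the ribosomal proteins were likewise not called. Of 46 tested genes of ribosome biogenesis, 0 passed the adjusted threshold, 4 had an unadjusted p under 0.05, and 10 were lower in all 4 high-yield cows against 1 higher. Of all genes 5.42% had such a p, 8.19% were lower and 9.34% higher in all pairs. The median of that list was -0.17, against 0.022 for all genes. RRN3, an initiation factor of RNA polymerase I, gave -0.81, -0.076, -0.71 and -0.35, MDN1, an assembly factor of the large subunit, gave -0.58, 0.025, -0.75 and -0.69, and UTP15, which works in the processing of small subunit RNA, gave -0.24, -0.27, -0.77 and -0.32.

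Of 28 tested genes that control ribosome production, 0 passed and 5 had an unadjusted p under 0.05, as did 5.42% of all genes. EIF4EBP1, the inhibitor of cap-dependent translation that mTORC1 switches off, had ratios of 1.36, 0.56, 1.71 and 0.53, higher in each high-yield cow than in its partner, with a mean of 1.04 ± 0.59 (SD, n = 4; limma adjusted p = 0.774). MYC, a transcription factor that drives ribosome production, gave -1.14, -0.0067, -0.99 and -0.80. Its partner MAX gave 0.39, 0.54, 1.97 and 0.78.

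Of 26 messages that carry a TOP motif and encode no ribosomal protein, 0 passed and 0 had an unadjusted p under 0.05, with a median of 0.053. EEF1D, a subunit of the exchange factor for elongation factor 1, gave 0.46, 0.33, 0.28 and 0.13, EIF4B gave -0.25, 0.63, 0.71 and 0.81, and EIF4A2 gave -0.84, -0.56, -0.077 and -0.036. The list's median was -0.45 in pair 1 and 0.26 in pair 4. Of 11 ribosomal proteins and ribosome-bound factors that the naming rule leaves out, 0 passed and 2 had an unadjusted p under 0.05: FAU, whose product carries ribosomal protein S30, gave 0.39, 0.31, 0.67 and 0.22, and SRP9, a part of the signal recognition particle, gave -0.085, -0.63, -0.84 and -0.81. RPL22L1 gave -0.29, 0.061, -0.44 and -0.82.

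Markers of other cell types were measured beside the members. Of 5 tested erythrocyte markers 4 were higher in all 4 high-yield cows than in their partners (9.34% of all genes), with a list median of 0.93, and HBA, a haemoglobin chain, gave 2.08, 1.48, 1.48 and 3.55. The summed intensity of that list was 9.72 to 12.66 (log2) in high-yield and 8.79 to 9.74 in low-yield cows. For luminal epithelium it was 16.48 to 17.08 and 15.95 to 16.99, with a list median of 0.013 over 9 markers. Of these KRT19, which had the smallest p, gave 0.34, 1.45, 2.24 and 1.103, while CDH1 had a mean of -0.67 and KRT18 of -0.61. The list medians of the mean ratio were -0.19 for 14 T and NK cell markers, 0.029 for 5 B and plasma cell markers, -0.14 for 9 of macrophages and dendritic cells, 0.084 for 7 of neutrophils, 0.19 for 8 of fibroblasts, 0.34 for 6 of endothelium, 0.18 for 4 of adipocytes, 0.085 for 8 of myoepithelium, 0.12 for 5 of skeletal muscle and 0.26 for 4 of lymph node. Of all these marker genes 0 passed the adjusted threshold, and 2 erythrocyte markers and KRT19 had an unadjusted p under 0.05. Their part in the members' ratios was not tested.

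In the authors' deposited table, taken as log2 ratios of high over low yield, the subunits gave a median of -0.037 for the large and -0.075 for the small subunit. Its pair 3 medians were -0.35 and -0.44, against 0.022 and 0.022 from the scanner intensities. Array 1 of pairs 2 and 3 is shrunken in that table, with slopes of 0.10 and 0.090 on the scanner ratios against 0.65 to 0.84 for the other 6 arrays. Without array 1 of those pairs in the scanner values the pair 3 medians were 0.21 and 0.085.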

How the data were processed

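Per the file headers, the scanner files hold intensity values of each spot and its local background in Cy5 and Cy3, extracted with Feature Extraction 10.10.1.1, and a log10 ratio of Cy5 over Cy3 that served to check the dyes. The authors' deposited table holds log2 ratios whose making is not given in the sources used here, and setting its columns against the scanner values showed high over low yield in every one. From the intensities, background was corrected in limma 3.58.1 (R 4.3.3) with normexp, its noise taken from the negative control spots, and an offset of 50, followed by loess within arrays. Outlier spots were left out, spots averaged per probe, and the arrays of a pair averaged after giving both the sign of high over low yield. Cow levels combine each array's mean intensity, brought to 1 distribution over arrays, with its ratio. A gene was its brightest probe, kept if well above background in at least 6 of 8 array channels of high-yield or of low-yield cows. The mean of 4 pairs, the difference between lactations and the dye part were tested with lmFit and eBayes across all genes (two-sided; Benjamini-Hochberg, threshold 0.05). The number of arrays limits the precision, and the scripts were tested on simulated data.

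The members and lists were chosen with earlier results of these data known. Genes were named one by one by rule: in each subunit the 5 with the smallest p among those of the same sign in 4 pairs and the 3 with the smallest p for lactation, 10 with a fixed role, and the 2 most and 2 least variable; from other lists, up to 3 with the smallest p. Others named for probes, paralogs or the dye part, and the dye test itself, were chosen after their values were seen. Current names came from RefSeq (ARS-UCD2.0); all 79 members tested kept theirs. Genes withheld for evaluation count in the totals but are not reported here.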

Additional observations from a re-analysis of the deposited data

Results flagged for a closer look

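Of 32 groups of 4 values examined, 4 held 1 value far from the other 3. The usual rate of about 1 in 20 holds for independent groups not chosen by their values. These groups share the same cows and arrays. RPS9 and RPL10L were also chosen for their spread and RPS4X for its sign, so the count cannot be set against that rate. The median level of large subunit genes in the low-yield cow of pair 1 was 0.32 above the genes' own means (log2), and the other 3 low-yield cows lay between -0.16 and -0.096. The RPS9 ratio of pair 1 was -1.002, against 0.50 to 0.60 in the other pairs. The RPS4X ratio of pair 1 was -0.94, against -0.13 to -0.052, and the RPL10L ratio of pair 1 was -0.015, against 0.092 to 0.10. Among the genes named by rule, in 3 both pairs of lactation II had 1 sign and both pairs of lactation IV the other. All 3 had been named for a small p for lactation, so this split follows in part from that choice. RPS23 and RPL37, named for the dye part, were split in the same way. The share of all genes with such a split is not given here. The difference, lactation IV minus II, was -0.52 for RPLP2, -0.37 for RPS25 and 0.58 for RPS4Y1, and limma's adjusted p was 0.674, 0.723 and 0.695. Without pair 1 the RPS4Y1 difference was 0.19 and without pair 2 it was 0.97. The RPLP2 difference was -0.31 without pair 2 and -0.092 with the mean of all kept probes. The RPS25 difference was -0.29 without pair 1 and -0.46 without pair 2.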

How the results depend on the processing

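Leaving out each pair in turn, the number of genes called for yield stayed at 0 and that for the lactation difference ran from 0 to 15 (15 without pair 2). Over the same 4 fits the large subunit's median yield ratio ran from -0.012 to 0.10, the small subunit's from -0.073 to 0.046, and the median lactation differences from -0.16 to 0.068 and from -0.12 to 0.16. With median centring in place of loess 6 genes were called for the lactation difference, the large subunit's median yield ratio was -0.10 and its lactation difference -0.20. With the saddle-point background the large subunit's median yield ratio was -0.095, and the lactation differences were -0.44 (large) and -0.38 (small). In that run the pair 3 medians were -0.58 (large) and -0.71 (small). In the authors' deposited table those differences were -0.37 and -0.34. From the Cy5-labelled high-yield cows alone the large subunit's median yield ratio was -0.066 and its lactation difference -0.25, and from those in Cy3 alone the lactation difference was 0.14. The causes were not tested, and 0 members were called for yield or lactation under any alternative run, where the smallest adjusted p of a member was 0.145 (lactation, without pair 2). The 9 genes described for their yield ratio and the 6 named for lactation kept their sign under every alternative that gave them a value. For the 9 this was partly fixed in advance. They had been chosen for the same sign in all 4 pairs, so leaving out a pair could not turn it. The runs without a filter, with lactation as a term and with unpaired cows repeat the same mean. Without array 1 of pairs 2 and 3, and with genes measured on all 8 arrays alone, both added after seeing the data, and with cows taken as unpaired, the counts for yield and lactation stayed at 0.

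Precision is limited by 4 pairs on 2 slides, by each cow sharing its arrays with its partner, and by a signal near background for RPL10L and RPL3L.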
